A study of Homo sapiens with 8 samples.

Results

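RN7SK, RPPH1, RMRP, RN7SL1 and RN7SL2 encode abundant short RNAs that are made by RNA polymerase III and act inside ribonucleoproteins. Their chromatin accessibility was compared between vehicle and sorbitol in HEK293 human embryonic kidney cells. Peaks were taken when they lay within 1 kb of either end of these 5 genes in the RefSeq gene table (GRCh38.p14). The rule gave 6 of the 129536 peaks in the table of counts. A single peak spanned each gene, and RN7SL2 had a second, weaker peak to its side. All 5 genes were found in the gene table, and all 6 peaks passed the filter on low counts.

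The measurements were Omni-ATAC-seq, in which a transposase cuts open chromatin in isolated nuclei and leaves sequencing adapters there. The control group held 4 libraries of vehicle-treated cells, and the other held 4 libraries of cells exposed to 0.2 M sorbitol, a sugar alcohol used to impose hyperosmotic stress, over 1 h. Both groups carried eGFP-YAP per the genotype field, although the titles name HEK293 alone, and the series description adds 1 h of serum starvation before sorbitol. The library names mark the controls as 0 h and the sorbitol libraries as 1 h, and the treatment protocol calls the controls untreated and collected in parallel. Whether vehicle was applied for the same time is not given in the sources used here. Whether the eGFP-YAP cells were a single clone is not given in the sources used here, nor whether replicates were separate cultures, so p-values measure only the spread between these libraries. No RNA was measured in the data used here, so the cell line was not checked against expressed markers.

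The 7SK RNA binds LARP7, MEPCE and HEXIM proteins and holds the transcription elongation kinase P-TEFb inactive. RPPH1 is the catalytic RNA of RNase P, which trims the leaders of transfer RNA precursors, and the related RMRP RNA belongs to RNase MRP, which cleaves ribosomal RNA precursors. The 7SL RNAs are the scaffold of the signal recognition particle (SRP), which brings ribosomes making secretory proteins to the endoplasmic reticulum. RN7SK, RPPH1 and RMRP have promoters that lie wholly upstream of the gene, with an octamer, a proximal sequence element bound by the SNAPc complex, and a TATA box. The 7SL genes use upstream sequence together with elements inside the transcribed region.

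The peaks of the upstream-promoter genes also covered the start of a protein-coding gene. The RN7SK peak on chromosome 6 (52994704 to 52996435, 1731 bp wide) contained the 332 bp gene at 52995620 to 52995951. It also contained the start of GSTA4, a glutathione transferase gene on the minus strand, 336 bp away. The RPPH1 peak on chromosome 14 (20342300 to 20343783, 1483 bp) contained the gene at 20343071 to 20343411 and the start of PARP2, a DNA repair enzyme gene, 224 bp away. The RMRP peak on chromosome 9 (35657323 to 35659083, 1760 bp) contained the gene at 35657750 to 35658019 and the start of CCDC107, 273 bp away. That peak also came within 1 kb of an end of ARHGEF39. Accessibility of each RNA gene and of its neighbour could therefore not be told apart in these 3 peaks.

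The 7SL peaks, both on chromosome 14, contained no end of another gene. The RN7SL1 peak (49585954 to 49587108, 1154 bp) covered the 299 bp gene at 49586580 to 49586878, which lies within the annotated span of the ribosomal protein gene RPS29. The main RN7SL2 peak (49862143 to 49863318, 1175 bp) covered the gene at 49862551 to 49862849, inside the lncRNA LOC105378179. The side peak of RN7SL2 (49861649 to 49862048, 399 bp) lay 503 bp from the gene. RN7SL1 and RN7SL2 are near-identical copies, and 7SK and 7SL have many pseudogenes. How reads that fit several copies were treated is not stated, so the split of counts between copies is uncertain.

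**Figure D1:**
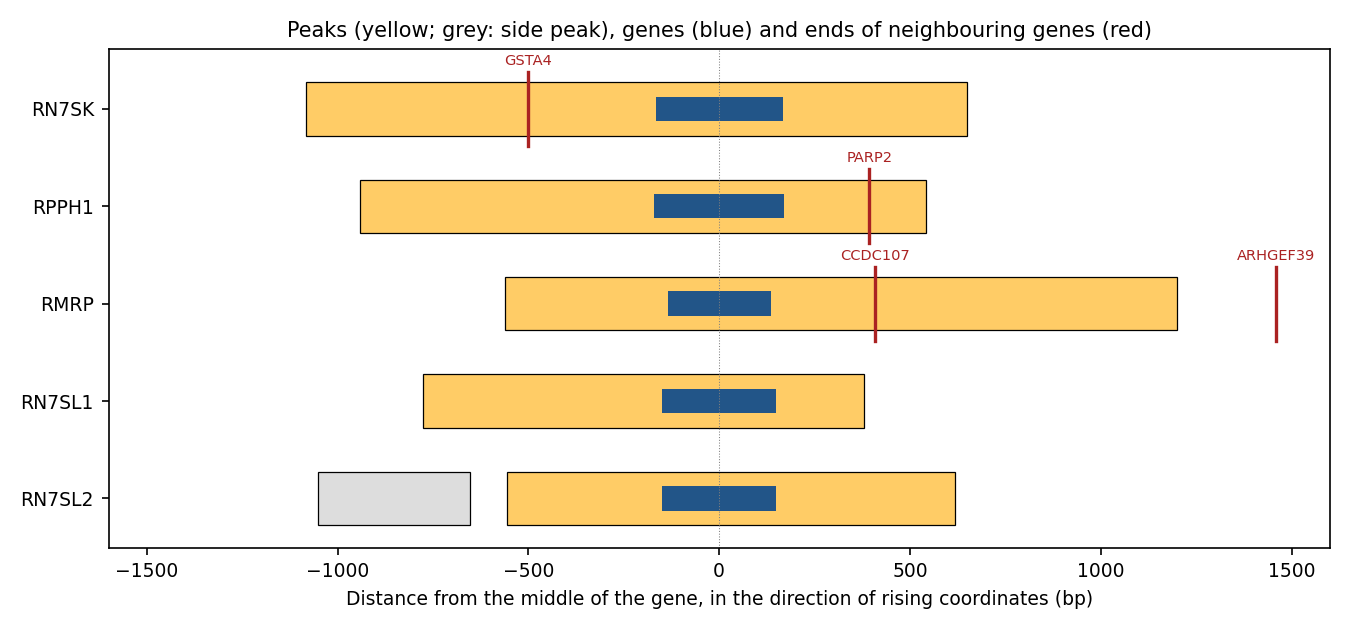
Extent of the 6 peaks (yellow, with the side peak in grey), the 5 RNA genes (blue) and the ends of neighbouring genes (red lines), as distance in bp from the middle of each RNA gene. The RN7SK, RPPH1 and RMRP peaks contain the start of a protein-coding gene, and the 7SL peaks contain no end of another gene.

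The RefSeq promoter table had no entry for RN7SK, RPPH1, RMRP, RN7SL1 or RN7SL2. It did hold the windows of the neighbouring genes, and those of PARP2 and CCDC107 are shown because they lie wholly inside the RPPH1 and RMRP peaks and take in sequence between the gene pairs. The PARP2 window covers the whole gap to RPPH1, whereas the CCDC107 window shares no base with RMRP and leaves out the part of the gap next to it. Both are 300 bases of GRCh38.p14 read along the plus strand, at chr14:20343385-20343684 and chr9:35658042-35658341. Capitals mark matches, on either strand, to the octamer ATTTGCAT, TATAA, the cyclic AMP response element TGACGTCA, the GC box GGGCGG, or a proximal sequence element of ACCNTAA, 5 or 4 free bases and AAA. The TATAA letters match both strands of PARP2 and overlap there.
PARP2: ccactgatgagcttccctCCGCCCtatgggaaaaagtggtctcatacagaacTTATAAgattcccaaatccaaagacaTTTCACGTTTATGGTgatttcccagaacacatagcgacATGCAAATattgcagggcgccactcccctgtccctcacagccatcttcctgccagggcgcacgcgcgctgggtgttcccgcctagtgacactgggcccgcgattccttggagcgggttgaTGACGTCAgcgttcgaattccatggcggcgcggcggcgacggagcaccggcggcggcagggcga
CCDC107: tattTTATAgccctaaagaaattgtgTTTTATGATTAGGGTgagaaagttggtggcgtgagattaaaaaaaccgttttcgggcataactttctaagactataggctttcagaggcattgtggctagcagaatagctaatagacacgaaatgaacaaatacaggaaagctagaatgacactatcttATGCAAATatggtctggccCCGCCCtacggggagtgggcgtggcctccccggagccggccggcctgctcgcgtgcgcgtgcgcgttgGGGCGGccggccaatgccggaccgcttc

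In the PARP2 window, 1 GC box match lay inside RPPH1, in the 27 bases that the window shares with that gene. Outward from the RPPH1 boundary followed TATAA, matched at 26 bp on one strand and 27 bp on the other, the proximal sequence element at 52 bp and the octamer at 90 bp. A TGACGTCA match lay 210 bp from RPPH1, next to the PARP2 start. In the CCDC107 window, the TATAA match began 27 bp from the RMRP boundary, the proximal sequence element at 49 bp and the octamer at 208 bp. The 5-base and 4-base spacings of the proximal element matched the same place there and overlap. Of 34943 distinct RefSeq promoter windows of this length, 1.77% held the octamer, 20.5% TATAA, 1.84% TGACGTCA and 44.9% the GC box. The proximal element with 5 free bases was in 0.206% of windows and that with 4 in 0.197%. Its letters were written from general knowledge of promoters of this kind, these included, so the matches describe the sequence and locate no bound factor. ACTACAA, the core of the ZNF143 site, was found in neither window and in 2.76% of all windows. The GSTA4 window (chr6:52995235-52995534), inside the RN7SK peak, held none of these letters. It leaves out the part of the gap next to RN7SK, which begins at 52995620, so that stretch was not searched.

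All 5 peaks that span a gene were lower with sorbitol than with vehicle. In edgeR (quasi-likelihood, p-values adjusted by Benjamini-Hochberg over 129487 tested peaks), 5 of the 6 peaks passed the adjusted threshold of 0.05, and each of them fell. None of the 6 was higher, also by DESeq2 or at an unadjusted p under 0.05 (0 in both). The upstream-promoter genes gave 3 of 3 peaks and the 7SL genes 2 of 3. Among all tested peaks 13.1% were called lower and 16.0% higher. Among peaks within 1 kb of any RefSeq gene end, called gene-boundary peaks here, 32.8% were lower and 8.74% higher, and in the strongest decile 49.2% of them were lower and 5.52% higher. All 5 gene-spanning peaks belong to that last class, in which the median log2 fold change was -0.21, against 0.01 for all tested peaks. The median of the 6 peaks was -0.39. Falls were common among strong peaks at gene ends, and the 5 genes were not tested against that class.

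Accessibility is given in CPM, the usual scaling of a peak's count to its library total, while log2 fold changes come from the fit, which also applies trimmed-mean (TMM) library factors. These factors make the fitted falls larger than the plain ratios of CPM.

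At RN7SK, the vehicle libraries held 107, 108, 109 and 96.9 CPM for replicates 1 to 4. The sorbitol libraries held 84.3, 89.9, 83.6 and 83.8 CPM. Every vehicle library lay above every sorbitol library, with replicate 4 the lowest of the vehicle group and replicate 2 the highest of the sorbitol group. The mean went from 105 ± 5.64 to 85.4 ± 3.03 CPM (SD, n = 4 libraries each). The fitted log2 fold change was -0.38 (standard error 0.07), with an edgeR adjusted p of 8.44e-05, a fall by 23.4%. This was the strongest of the 6 peaks, and only 0.263% of all tested peaks had a higher mean CPM.

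RPPH1 had the smallest fall of the gene-spanning peaks. Vehicle libraries held 94.98, 92.8, 86.1 and 79.1 CPM, and sorbitol libraries 80.3, 76.6, 75.5 and 82.2 CPM. The groups overlapped, because vehicle 4 lay below sorbitol 1 and sorbitol 4. The mean went from 88.2 ± 7.18 to 78.7 ± 3.12 CPM (SD, n = 4), and the log2 fold change was -0.25 (standard error 0.08, edgeR adjusted p = 0.0121). The call was lost without vehicle 1 (-0.21, edgeR adjusted p = 0.0724) and without vehicle 2 (-0.21, adjusted p = 0.0597). With TMM factors computed from gene-boundary peaks alone the change was -0.07 (edgeR adjusted p = 0.426), so relative to other gene ends a change at RPPH1 was not detectable.

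RMRP had the largest fall. The vehicle libraries held 92.3, 87.2, 85.4 and 79.1 CPM. The sorbitol libraries held 71.6, 63.3, 66.5 and 68.8 CPM. No sorbitol library reached the lowest vehicle library, which was again replicate 4. The mean went from 86.0 ± 5.42 to 67.5 ± 3.51 CPM (SD, n = 4), with a log2 fold change of -0.43 (standard error 0.08, edgeR adjusted p = 2.24e-05), a fall by 25.9%. Only 13.8% of all tested peaks, and 19.1% of those in the strongest decile, had a lower log2 fold change.

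Both 7SL genes fell. RN7SL1 held 64.2, 57.9, 56.4 and 52.8 CPM in vehicle and 45.2, 50.2, 47.8 and 42.5 CPM in sorbitol libraries. RN7SL2 held 70.5, 70.9, 75.3 and 67.4 CPM in vehicle and 56.8, 56.5, 57.7 and 57.1 CPM in sorbitol libraries. Neither gene had any overlap between the groups, and the sorbitol libraries of RN7SL2 were the most alike of any peak here. RN7SL1 went from a mean of 57.8 ± 4.75 to 46.4 ± 3.31 CPM (SD, n = 4), with a log2 fold change of -0.40 (standard error 0.08, edgeR adjusted p = 0.000181). RN7SL2 went from 71.0 ± 3.26 to 57.0 ± 0.501 CPM (SD, n = 4), with a log2 fold change of -0.40 (standard error 0.08, edgeR adjusted p = 6.85e-05).

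The side peak of RN7SL2 was weaker by far. It held 11.04, 8.97, 9.43 and 7.93 CPM in vehicle and 6.77, 9.32, 10.1 and 9.47 CPM in sorbitol libraries, and the groups overlapped widely. Its log2 fold change was -0.14 (standard error 0.13, edgeR adjusted p = 0.458), with an approximate 95% interval from -0.41 to 0.12. That interval includes the -0.40 of the main RN7SL2 peak, so a fall of that size was not excluded by these counts (78 to 187 per library). The 2 peaks were not tested against each other.

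**Figure D2:**
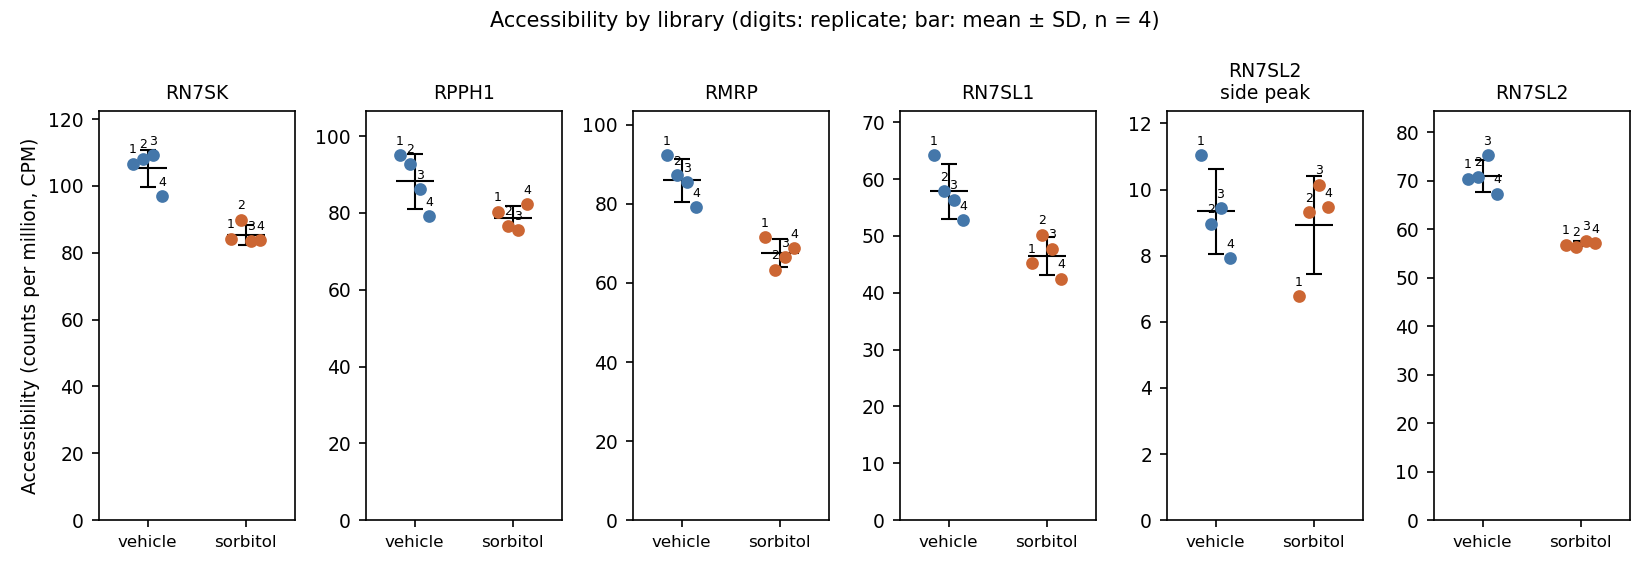
Accessibility in CPM of each peak in the 4 vehicle and 4 sorbitol libraries, each point a library with its replicate number and each bar the mean ± SD. The groups are apart at RN7SK, RMRP, RN7SL1 and the main RN7SL2 peak, and overlap at RPPH1 and the side peak.

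In all, 4 of the 6 peaks had every vehicle library above every sorbitol library, namely those at RN7SK, RMRP, RN7SL1 and RN7SL2. The same was true of 9.47% of all tested peaks and of 24.5% of gene-boundary peaks. In order of mean CPM over both groups the gene-spanning peaks ran RN7SK, RPPH1, RMRP, RN7SL2 and RN7SL1, but peaks differ in width and in the genes they cover, so this order is of whole peaks.

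Summed over the peaks of a gene, the share of the library fell by 18.8% at RN7SK, 21.5% at RMRP, 19.7% at RN7SL1 and 17.9% at RN7SL2. For each of these the exact two-sided permutation test gave p = 0.0286, the smallest that 4 against 4 libraries allow, and 0.0357 after adjustment over the 5 genes. At RPPH1 the change was -10.9% (exact permutation p = 0.0857, also after adjustment). Taken as a share of the counts in gene-boundary peaks, the changes were -12.2% at RN7SK, -15.0% at RMRP, -13.0% at RN7SL1 and -11.2% at RN7SL2 (exact permutation p = 0.0286 each). On that scale RPPH1 changed by -3.50% (exact permutation p = 0.4).

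The 3 upstream-promoter genes together went from 279 ± 17.1 to 232 ± 4.82 CPM and the 7SL genes from 138 ± 7.46 to 112 ± 3.93 CPM (SD, n = 4), falls by 17.1% and 18.7%. The ratio of upstream-promoter to 7SL accessibility was 2.02, 2.09, 1.99 and 1.99 in vehicle and 2.17, 1.98, 1.95 and 2.15 in sorbitol libraries. Those ratios overlapped between the groups, with means of 2.02 ± 0.0478 and 2.06 ± 0.113 (SD, n = 4). No test was made of the difference between the types.

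Library totals ranged from 14757015 to 19831471 counts in peaks in the vehicle group and from 11522266 to 14355727 in the sorbitol group. Counts at the gene-spanning peaks ran from 521 to 2165 per library, so counting error was small there. Gene-boundary peaks held 50.5% to 52.6% of counts in vehicle and 46.7% to 49.4% in sorbitol libraries. Vehicle 4 was the lowest vehicle library at 5 of 5 gene-spanning peaks and also had the highest background index of all libraries, 0.35. The index is the median log2 deviation of 477 peaks on unplaced and unlocalized contigs. Sorbitol 4 had the lowest index, -0.32. Without these 2 libraries the log2 fold changes were -0.44 at RN7SK, -0.35 at RPPH1, -0.51 at RMRP, -0.43 at RN7SL1 and -0.45 at RN7SL2, and all 5 passed the edgeR threshold. With the index as a covariate they were -0.36, -0.21, -0.41, -0.39 and -0.38, and all 5 passed as well.

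Scaling set the size of these falls. With gene-boundary factors, which moved the median of all peaks from 0.01 to 0.19, the changes were -0.21 at RN7SK, -0.25 at RMRP, -0.22 at RN7SL1 and -0.22 at RN7SL2, with edgeR adjusted p-values from 0.00258 to 0.0158. An offset that removes trends with peak strength gave -0.16, -0.22, -0.20 and -0.19 for the same genes (edgeR adjusted p from 0.0109 to 0.0388). With TMM factors from contig peaks the changes were larger, from -0.49 to -0.30, yet 0 of the 6 peaks passed edgeR's adjusted threshold (lowest adjusted p = 0.153, at RMRP), while 4 had an unadjusted p under 0.05. By DESeq2 with its own size factors 5 of the 6 peaks were lower.

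**Figure D3:**
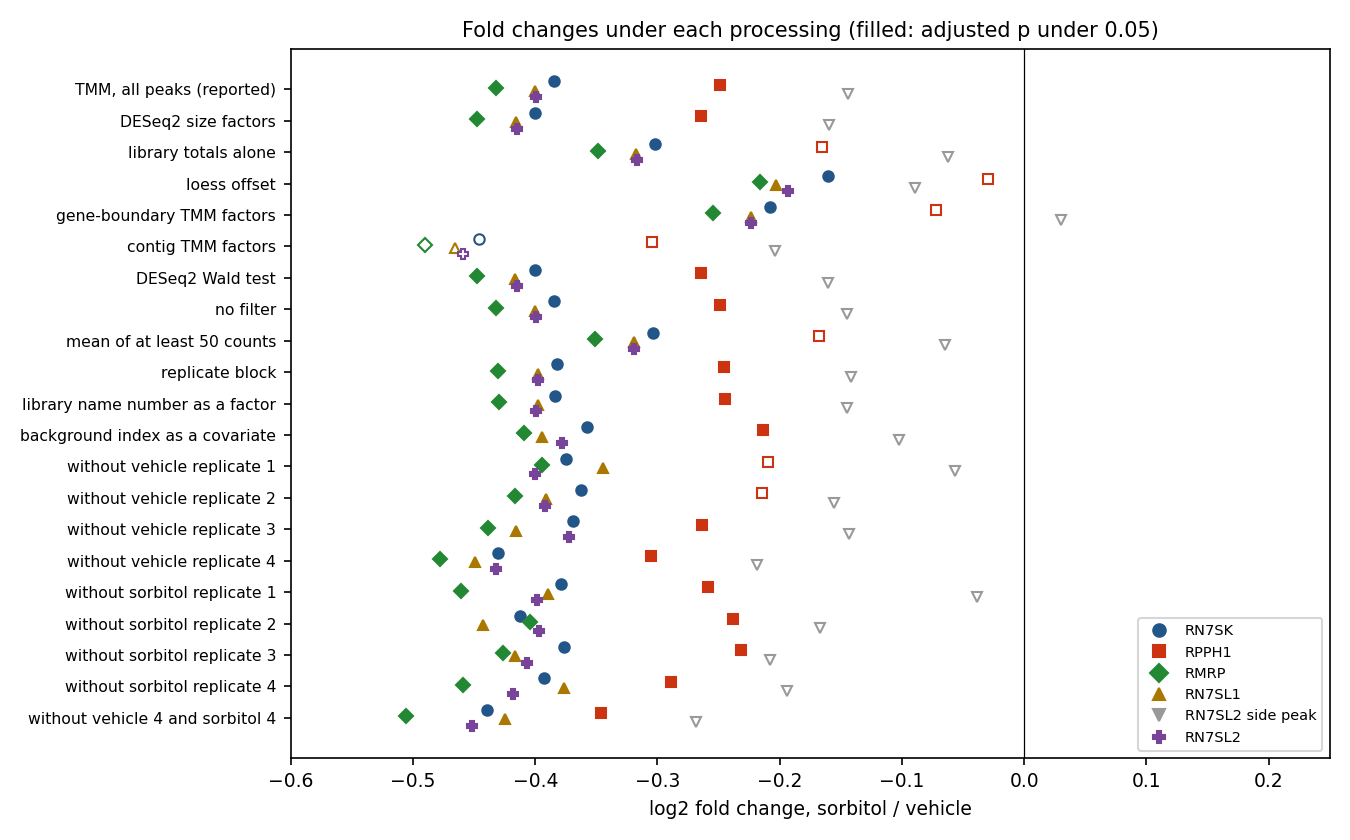
Log2 fold change of each peak (sorbitol over vehicle, x axis) under each processing tried (y axis), filled where the adjusted p was under 0.05. The RN7SK, RMRP, RN7SL1 and RN7SL2 peaks stay at or below -0.16 throughout, and RPPH1 reaches -0.03 with the loess offset.

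Calls in both directions were found in the surroundings. Of 31 peaks between 1 kb and 50 kb from the 5 genes, 5 were lower and 3 higher by edgeR (median log2 fold change -0.05). Among all tested peaks 13.1% were lower and 16.0% higher. With gene-boundary factors 0 of the 31 were lower and 5 higher (0 lower at an unadjusted p too). Those factors called 6.7% of all 129487 tested peaks lower and 34038 higher. Around RN7SK there were only 2 such peaks and around RMRP 8, and edgeR called 0 of these, although 1 near RN7SK (-0.35) and 1 near RMRP (-0.21) had an unadjusted p under 0.05. Both peaks around RPPH1 were lower, at CCNB1IP1 (-0.24, edgeR adjusted p = 0.0442) and TTC5 (-0.34, adjusted p = 0.0243), changes close in size to that of the RPPH1 peak. The other 3 lower peaks, named like these after their values were seen, lay at RPL36AL and MGAT2 (-0.26), DNAAF2 (-0.28) and ARF6 (-0.26). The 31 surrounding peaks had a median of 7.60 CPM. The lower peaks at DNAAF2, at RPL36AL and MGAT2, and at ARF6 were much stronger than that median, at 81.2, 54.0 and 47.9 CPM.

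Around RN7SL1, neither peak near the boundary of RPS29 passed the test. The nearer one, 10807 bp from RN7SL1, had a log2 fold change of -0.36 (standard error 0.16, edgeR adjusted p = 0.0722), close in size to that of RN7SL1. The next, shared with LRR1, had a log2 fold change of -0.19 (standard error 0.09, edgeR adjusted p = 0.109). RN7SL3, the other annotated 7SL RNA gene, shared 2 peaks with NEMF, a gene of ribosome quality control. Those had log2 fold changes of 0.03 and -0.21 (edgeR adjusted p = 0.838 and 0.0849). The means of the RN7SL3 peaks were 23.7 ± 0.686 and 22.4 ± 0.873 CPM in vehicle, and 25.7 ± 0.757 and 20.6 ± 1.53 CPM in sorbitol libraries (SD, n = 4). Another 3 peaks near the 7SL genes were higher, with log2 fold changes of 0.52 to 0.54. They lay 7128 bp and 13037 bp from RN7SL1, the latter at LRR1 and the pseudogene RHOQP1, and 12726 bp from RN7SL2.

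**Figure D4:**
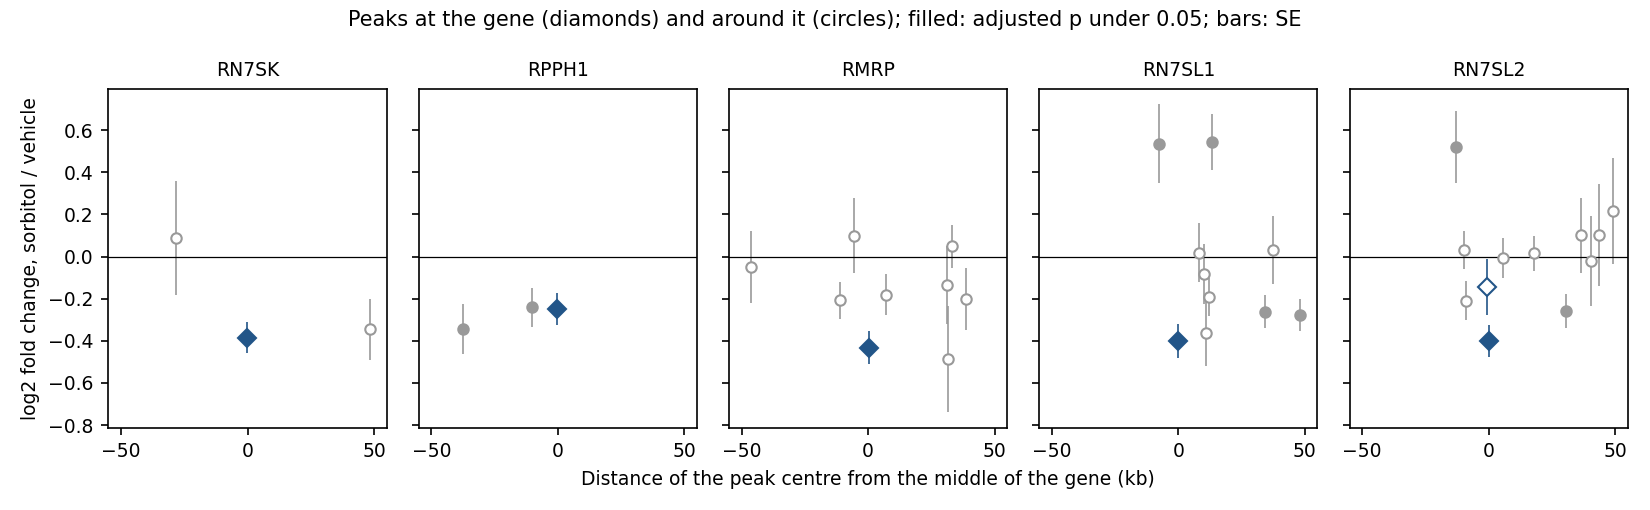
Log2 fold change with its standard error for the peaks at each gene (diamonds) and within 50 kb of it (circles), by distance in kb from the middle of the gene, filled where the adjusted p was under 0.05. The gene-spanning peaks lie at -0.43 to -0.25, while the surrounding peaks scatter from -0.49 to 0.54.

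Other copies of these RNAs in the genome held calls in both directions. The gene table listed 981 further entries whose names begin like the 5 genes, nearly all pseudogenes, and 119 of them had a peak within 1 kb. Their 125 peaks comprised 12 that fell (9.6%) and 18 that rose (median log2 fold change -0.04). Of all tested peaks 13.1% were lower and 16.0% higher, and of gene-boundary peaks 32.8% and 8.74%. The copies were not tested against these shares. Their counts were 16 lower and 15 higher with the loess offset, and 5 and 30 with gene-boundary factors. Of all 129487 tested peaks, the loess offset called 12.5% lower and 18798 higher, and gene-boundary factors 6.7% lower and 34038 higher. The 7SL copies gave 9 lower and 13 higher of 95 peaks, and the 7SK copies 3 lower and 5 higher of 30. Lower peaks had medians of 7.53 CPM (7SL) and 16.02 CPM (7SK), against 1.68 and 1.51 CPM for higher peaks. The lower peak with the smallest p-value, at RN7SL774P, also lay at the ubiquitin-conjugating enzyme gene UBE2G1 and went from 60.2 ± 6.64 to 35.7 ± 2.73 CPM (SD, n = 4; log2 fold change -0.84, edgeR adjusted p = 1.08e-10). The higher peak with the smallest p-value, at RN7SL764P, was weak, at 0.365 ± 0.0870 CPM in vehicle and 1.59 ± 0.521 CPM in sorbitol libraries (SD, n = 4; log2 fold change 2.03, edgeR adjusted p = 5.09e-05).

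Many peaks at genes for proteins that work with these RNAs, or transcribe them, were lower too. Over 6 lists with 61 genes, 81 peaks at gene ends were tested, 52 lower (64.2%) and 2 higher (median log2 fold change -0.35). Of all gene-boundary peaks 32.8% were lower, with a median of -0.17, and of those in the strongest decile 49.2%. Gene-boundary factors gave 34 lower and 6 higher at the listed genes, the loess offset 37 and 5, and contig factors 12 and 1. Of all 129487 tested peaks these settings, in that order, called 6.7%, 12.5% and 3.92% lower, and 34038, 18798 and 8819 higher. The lists came from general knowledge and were described, not tested as lists.

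Among the 7SK-binding proteins and P-TEFb, 6 of 11 peaks were lower and 0 higher by edgeR (1 at an unadjusted p, 0 by DESeq2). Gene-boundary factors gave 4 lower and 1 higher, the loess offset 4 and 0, and contig factors 0 and 0 (4 lower at an unadjusted p). CDK9, the P-TEFb kinase, had a log2 fold change of -0.54 (standard error 0.09, edgeR adjusted p = 3.61e-06) and its cyclin partner CCNT1 -0.50. HEXIM2, an inhibitor of P-TEFb when bound to 7SK, had -0.53 at its stronger peak. A weak HEXIM2 peak (2.05 CPM on average) had 0.57 and was not called (edgeR adjusted p = 0.0921). RNase P and RNase MRP proteins gave 8 lower and 1 higher of 14 peaks, 7 and 1 with gene-boundary factors or the loess offset, and 1 and 1 with contig factors. RPP21, at a peak shared with TRIM39, fell by 0.69 on the log2 scale (edgeR adjusted p = 3.39e-07), POP5 by 0.53 and POP7 by 0.51. A weak peak of RPP40 (1.65 CPM on average) rose by 0.97, whereas its main peak (67.7 CPM) had -0.41. All of these except the weak HEXIM2 peak passed the test.

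SRP proteins and the SRP receptor gave 6 lower and 1 higher of 10 peaks, at 7 of 8 genes. The counts were 4 and 1 with gene-boundary factors or the loess offset, and 1 and 0 with contig factors. SRP68, at a peak shared with GALR2, went from 27.8 ± 2.39 to 15.9 ± 2.05 CPM (SD, n = 4; log2 fold change -0.89, edgeR adjusted p = 1.03e-09). SRP72, its partner in the particle, had -0.50 at its stronger peak. The weaker SRP72 peak (14.9 CPM) had -0.16 and was not called (edgeR adjusted p = 0.251). Both SRP72 peaks were shared with LOC124900706. SRP9, which binds the Alu part of 7SL, had -0.44 at its main peak (103 CPM). The peak called higher was the weaker of SRP19 (5.87 CPM on average), at 0.48, while its main peak (25.8 CPM) had -0.35. By edgeR all of these except the weaker SRP72 peak passed the adjusted threshold.

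Factors of the upstream promoters gave 12 lower and 0 higher of 15 peaks by edgeR (0 higher also at an unadjusted p and by DESeq2). With gene-boundary factors 5 were lower and 1 higher, with the loess offset 6 and 1, and with contig factors 3 and 0. SNAPC4, the largest SNAPc subunit, had peaks at -1.02 and -0.65, and SNAPC5 had -0.60 at a peak shared with RPL4. Of 11 peaks at TFIIIC, BRF1, MAF1 and related genes 9 were lower and 0 higher by the same measures, with 6 and 0 under gene-boundary factors or the loess offset and 2 and 0 under contig factors. GTF3C2, a TFIIIC subunit, had -0.85 (standard error 0.08, edgeR adjusted p = 3.90e-11), MAF1, the repressor of RNA polymerase III, had -0.71 at a peak shared with SHARPIN, and GTF3C1 had -0.54 at one shared with KATNIP. Subunits of RNA polymerase III gave 11 lower and 0 higher of 20 peaks by edgeR (1 higher at an unadjusted p), and 9 and 0 by DESeq2. It was 8 and 2 with gene-boundary factors, 10 and 2 with the loess offset, and 5 and 0 with contig factors. POLR3E had -0.81 at a peak shared with the transfer RNA gene TRL-AAG2-4 and -1.12 at a weak peak of 0.791 CPM. POLR3A had -1.13 at a weak peak of 2.19 CPM, -0.62 at its strongest peak (21.0 CPM) and -0.45 at another (4.55 CPM). Each value in this paragraph passed the edgeR threshold.

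Other genes of RNA polymerase III are set beside these without a test. U6 snRNA genes, which share the upstream promoter type, had 4 of 6 peaks lower, 0 higher by edgeR (0 also at an unadjusted p and by DESeq2), and a median log2 fold change of -0.31. Y RNA and vault RNA genes had 5 of 10 lower, 1 higher and a median of -0.28. Every vault RNA peak was lower, with -0.57 at VTRNA1-1, -0.35 and -0.49 at VTRNA1-2, and -0.58 at VTRNA1-3. At the Y RNA genes, RNY3 was higher (0.33) and a single RNY1 peak was lower (-0.37). The remaining Y RNA peaks were not called, with 0.01 at RNY5, 0.17 at RNY4, and -0.22 and -0.08 at RNY1. Transfer RNA genes, whose promoters lie inside the gene, had 271 of 362 lower, 4 higher and a median of -0.48. Of all gene-boundary peaks 32.8% were lower and 8.74% higher. With gene-boundary factors the lower and higher counts were 1 and 0 for U6, and 2 and 3 for Y and vault RNA. For transfer RNA genes they were 213 and 14. With contig factors the U6 counts were 0 and 0 (2 lower at an unadjusted p). The Y and vault RNA counts were 0 and 0 (3 lower at an unadjusted p), and the transfer RNA counts 120 and 1. All 129487 tested peaks gave 17016 lower and 20701 higher in the reported fit. They gave 8670 and 34038 with gene-boundary factors, and 5078 and 8819 with contig factors. The 6 peaks described here, at a median of -0.39, fall within the span of these medians.

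**Figure D5:**
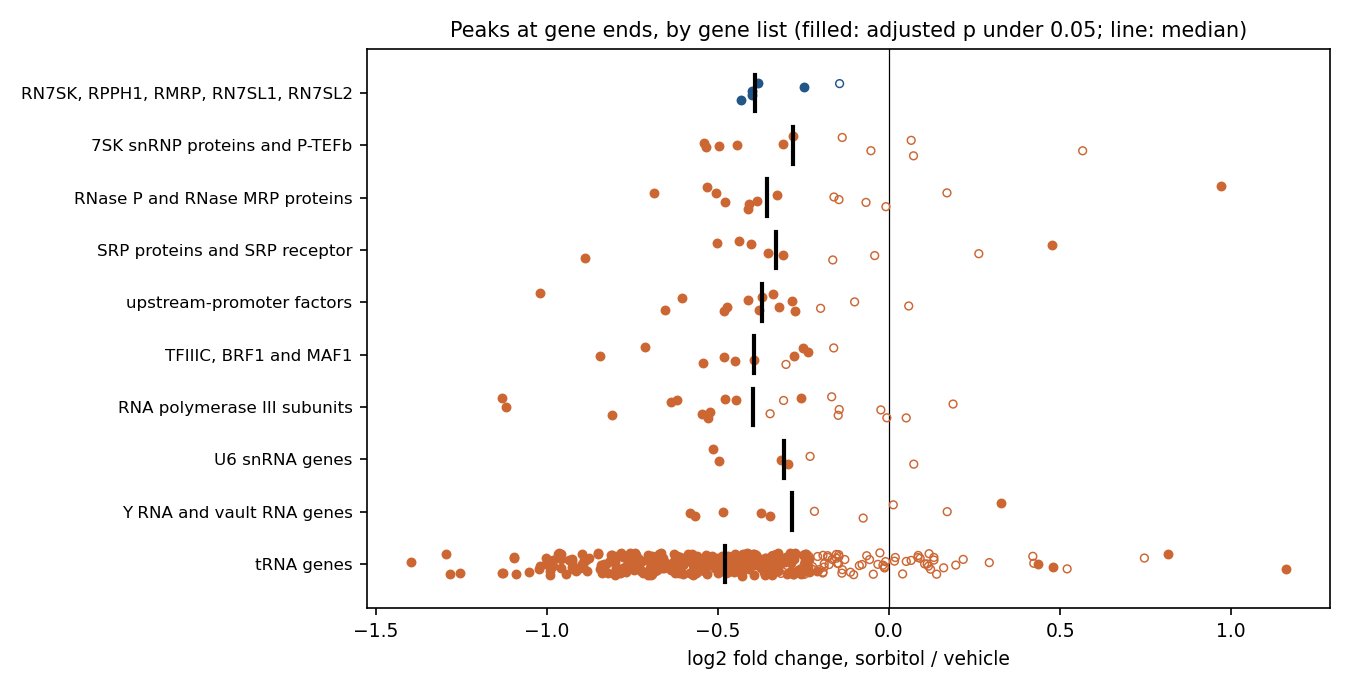
Log2 fold change (sorbitol over vehicle) of every tested peak at the 5 genes (blue) and at each gene list (orange), filled where the adjusted p was under 0.05, with the median as a black line. Medians of the lists run from -0.48 at transfer RNA genes to -0.28.

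Likeness over the 8 libraries was measured as Pearson's r of log2 CPM against 18878 other gene-boundary peaks whose mean count was 50 or more. The libraries share their treatment split, so high r is common, and no p is given. RN7SK was most like CACTIN (r = 0.996) and the transfer RNA genes TRK-TTT2-1 and TRA-TGC5-1 (0.994 and 0.993). RPPH1 was most like the peaks shared by STAG1 and STAG1-DT (0.983), by ABHD14A, ABHD14A-ACY1 and ABHD14B (0.981), and by LIPT1 and TSGA10 (0.975). RMRP was most like the peaks shared by ZNF568 and ZNF829 (0.994) and by VPS72 and TMOD4 (0.992), and that of ECSIT (0.991). For the 7SL genes the peaks most alike were FHIT (0.992, shared with LOC124909387), CDKN2D (0.990) and LINC01220 (0.986) for RN7SL1. ZFP41 (0.995), TRM-CAT2-1 (0.994, shared with LINC02136) and ZNF714 (0.994) were closest to RN7SL2. Among the 5 genes, r ran from 0.735 between RPPH1 and RN7SL2 to 0.959 between RN7SK and RN7SL2.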

How the data were processed

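Omni-ATAC-seq libraries from 50000 cells each gave 75 bp paired-end reads, as the labels' protocols state. The authors deposited raw counts per shared peak for 8 libraries. The submitters' processing notes name hg38/GRCh38 and, without roles, BWA 0.7.17, SAMtools 1.22, MACS2 2.2.9.1 and other tools. How peaks were merged, whether reads or fragments were counted and which mapping quality was required are not given in the sources used here. Coordinates are printed as in the table.

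Counts were analysed with R 4.3.3 and edgeR 4.0.16. The filterByExpr step (minimum count 10, total 15) removed 49 peaks. TMM factors and a quasi-likelihood test with treatment as the only term followed, with Benjamini-Hochberg adjustment over all 129487 peaks. Summed shares used exact permutation tests (SciPy 1.17.1). The fit was tested on simulated data. It recovered 56 of 100 changes of 1 log2 unit and 21 of 100 of 0.6, with 4 false calls. Only those peaks, drawn at random over all strengths, were changed in the simulation, whereas 37717 were called in the data. The recovery rates therefore do not give the power at the peaks described here. A peak that was not called is not shown to be unchanged. DESeq2 1.42.0 was an alternative.

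Each column's replicate was read from the number its name carries. Libraries of a group correlated at 0.944 to 0.964, those of different groups at 0.904 to 0.921. The genes, lists and tests were chosen with earlier results of these data known. Named were all peaks at the 5 genes, genes sharing them, the 3 most alike peaks for each gene, and from each list the called peak with the smallest p-value per direction with up to 2 further called peaks of largest change. Called peaks of pseudogene copies also qualified, of which only those with the smallest p-value per direction are described. Reads copied by PCR, with no molecular identifiers, are not separate molecules, so counting error is a lower limit.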

Additional observations from a re-analysis of the deposited data

Results flagged for a closer look

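In the RN7SK peak, sorbitol 2 stood apart from the other sorbitol libraries, with 89.9 CPM against 83.6 to 84.3 CPM. It was still below the lowest vehicle library, at 96.9 CPM. Of 12 groups of 4 libraries examined, this was the only such case, and chance alone gives about 0.6.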

How the results depend on the processing

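The RN7SK, RMRP, RN7SL1 and RN7SL2 peaks each kept their direction and their call under 20 of 21 alternatives. The exception was TMM factors from contig peaks, which gave -0.45, -0.49, -0.47 and -0.46 (edgeR adjusted p = 0.199, 0.153, 0.185 and 0.190) and left 0 of the 6 peaks called lower (4 at an unadjusted p under 0.05). The cause was not tested.

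RPPH1 kept its call under 13 of 21. It lost it with contig factors (-0.30), library totals alone (-0.17), the loess offset (-0.030), gene-boundary factors (-0.072), a mean of at least 50 counts (-0.17) and the stricter threshold of 0.01 (-0.25, the threshold being the reason). The cause of the others was not tested. Leaving out each library gave -0.31 to -0.21 at RPPH1. The side peak of RN7SL2 turned to 0.030 with gene-boundary factors, and the cause was not tested. Over all tested peaks, 54.9% of calls were higher, but 79.7% when gene-boundary factors were used and 67.4% on library totals. Called peaks numbered 37717, 21406 with the count minimum and 13897 with contig factors.

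Leaving out each library left 4 to 5 peaks lower. The falls in summed share then ranged from -20.9% to -17.8% at RN7SK, -23.5% to -19.5% at RMRP, -22.0% to -16.6% at RN7SL1 and -19.6% to -16.4% at RN7SL2, with an exact permutation p of 0.0571, the smallest that 3 against 4 libraries allow. With library totals multiplied by TMM factors, the changes were -23.4%, -25.9%, -24.2% and -22.5% for these genes and -15.9% at RPPH1 (exact permutation p = 0.0571).

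Of the 31 surrounding peaks 5 were lower and 3 higher. The lower count became 1 with library totals alone, 0 with the loess offset, gene-boundary or contig factors, 3 with the count minimum, and 1 at a threshold of 0.01. The higher count became 5 with gene-boundary factors, 0 with contig factors and 1 at the stricter threshold. Leaving out each library gave 3 to 7 lower and 1 to 3 higher. It was 3 lower without vehicle 3, sorbitol 2 or sorbitol 3, and 1 higher without vehicle 2, vehicle 3 or sorbitol 4. Partner genes gave 52 lower and 2 higher peaks, with 34 and 6 under gene-boundary factors, 12 and 1 under contig factors, 5 higher with the loess offset, and 1 higher at the stricter threshold or without vehicle 4 and sorbitol 4. Leaving out each library gave 44 to 51 lower and 1 to 3 higher, with 1 higher without vehicle 4, sorbitol 3 or sorbitol 4. The alternatives for surrounding and partner peaks were chosen after seeing the data.

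Same-numbered libraries did not deviate together (correlations -0.129 to 0.00665), so the numbers were not taken as pairs. With the replicate block 5 of the 6 peaks remained called lower. The block left the falls in summed share at -18.8% (RN7SK), -21.5% (RMRP), -19.7% (RN7SL1) and -17.9% (RN7SL2), where an exact permutation of signs over 4 pairs cannot go below its p of 0.125.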
